A study of Mus musculus with 2 samples.

Results

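The expression of 5 dorsal telencephalic transcription factor genes, Pax6, Eomes, Emx1, Emx2 and Lhx2, was examined in single cells of the E16.5 mouse dorsal telencephalon. They were taken by symbol from the 32285 genes of the count matrices, and each symbol matched 1 row. The series crossed mice for an Emx1-Cre-driven conditional loss of Dot1l, but only the 2 libraries labelled wild-type (WT) entered, replicates 1 and 6, so no genotypes were compared. The labels give papain dissociation and no drug treatment, and they do not say whether the WT embryos carry the Emx1-Cre allele, how many embryos entered a library or whether the libraries were prepared together. Emx1-Cre is driven by 1 of the genes described here.

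In the embryonic cortex, radial glial cells (RGCs) line the ventricle, divide and give rise to intermediate progenitor cells (IPCs), which produce most excitatory neurons. PAX6, a paired-domain and homeodomain factor, is known as a determinant of cortical RGCs and of neurogenesis. EOMES, a T-box factor also called TBR2, is the classical marker of IPCs. The homeodomain factors EMX1 and EMX2 and the LIM-homeodomain factor LHX2 pattern the cortex and set it apart from neighbouring tissue. In the basal telencephalon, the ganglionic eminences harbour other progenitors, which give rise to inhibitory neurons, among them cortical inhibitory interneurons (cINs).

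In the mm10 (GRCm38.p6) coordinates of RefSeq, Pax6 (ENSMUSG00000027168) lies at chr2:105668896-105698410 and Lhx2 (ENSMUSG00000000247) at chr2:38339271-38369737. Eomes (ENSMUSG00000032446) lies at chr9:118478186-118486132, Emx1 (ENSMUSG00000033726) at chr6:85187931-85204463 and Emx2 (ENSMUSG00000043969) at chr19:59458690-59465357. Emx2 has a divergent antisense partner, Emx2os (ENSMUSG00000087095), on the opposite strand, and its RefSeq span ends at position 59458635, just upstream of the Emx2 start. The 250 bases upstream of the Emx2 start, chr19:59458440-59458689 on the plus strand, are shown because both genes begin there and, as described below, had their highest levels in the same cells. The 54 bases between the start sites are in capitals, and GC content over the window was 67.2%, against a median of 52.4% over 32851 RefSeq promoter windows.
Emx2 upstream window: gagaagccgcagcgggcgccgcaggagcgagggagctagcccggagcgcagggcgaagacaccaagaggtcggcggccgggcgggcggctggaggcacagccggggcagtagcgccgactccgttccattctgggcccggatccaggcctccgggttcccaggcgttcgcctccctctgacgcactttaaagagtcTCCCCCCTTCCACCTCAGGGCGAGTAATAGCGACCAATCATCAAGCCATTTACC

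WT replicate 1 held 14136 cells with 74930397 unique molecular identifiers (UMIs, each a counted mRNA molecule), and WT replicate 6 held 13046 cells with 68964234 UMIs. The filter of 1500 to 60000 UMIs per cell, with mitochondrial transcripts below 10%, passed 8139 and 8209 cells, of which 7219 and 7352 remained after likely doublets had been left out. The libraries differed in sex-linked transcripts, with 57831 and 6 UMIs of Xist and 1 and 1610 UMIs of the Y-linked gene Ddx3y in the remaining cells. Of the barcodes, 59 occurred in both libraries, and 26 among the kept cells. Classes were gated with fixed marker genes that included none of the 5 factors. The gates gave 438 and 421 RGCs, 394 and 422 IPCs, 263 and 265 cycling progenitors of the ganglionic eminence, 1691 and 1803 excitatory neurons, 1162 and 1133 inhibitory neurons and 51 and 53 Cajal-Retzius cells, the early-born neurons of the marginal zone. Inhibitory neurons were split by markers into medial eminence (MGE), caudal eminence (CGE), dorsal lateral eminence (dLGE) and striatal types. The median RGC score of RGCs was 2.25 and their IPC score -0.15, while IPCs had medians of -0.09 and 1.39. Cells at the border of both gates remained, since 55.8% of IPCs had at least 3 RGC markers and 11.9% of RGCs at least 3 IPC markers. Likewise, 56.9% of IPCs had at least 3 excitatory neuron markers and 7.73% of excitatory neurons at least 3 IPC markers. Of eminence progenitors, 47.0% had at least 3 IPC markers. No class was assigned to 2638 and 2650 cells, which held 16.2% and 17.4% of the Pax6 UMIs, 19.8% and 17.7% of the Eomes UMIs and 24.9% and 34.2% of the Emx1 UMIs. Levels are given as CPM, the UMIs of the gene scaled to a fixed total of UMIs of the class, and a gene is compared only with itself, since the values are not per length.

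Each factor had its own order of levels over the classes, shown in the plot of CPM by class and library. Pax6 was highest in RGCs and IPCs, Eomes in IPCs, Emx1 in IPCs followed by excitatory neurons, Emx2 in Cajal-Retzius cells, and Lhx2 in IPCs followed by excitatory neurons and RGCs.

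**Figure D1:**
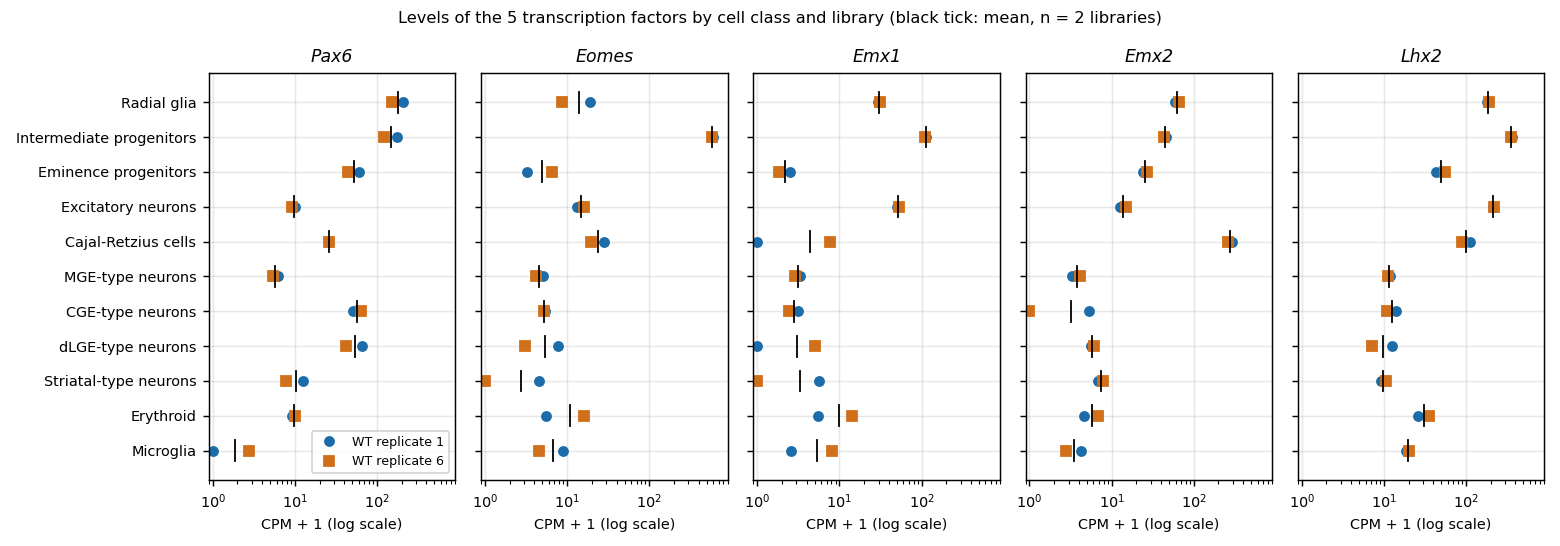
CPM + 1 on a log scale (x axis) of each factor in 9 neural classes and in erythroid cells and microglia (y axis), with 1 symbol per library and a black tick at the mean of the 2 libraries. Eomes reached 589.8 and 581 CPM in IPCs and stayed under 28 CPM in every other class plotted, while Emx2 was highest in Cajal-Retzius cells, at 288 and 263 CPM.

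Pax6 stood at 205 CPM in WT replicate 1 and 149 CPM in WT replicate 6 in RGCs. In IPCs it stood at 173 and 121 CPM. The ranges of both classes overlapped. CGE-type neurons, dLGE-type neurons and eminence progenitors followed at 56.0 ± 8.8, 52.7 ± 17.0 and 51.5 ± 10.7 CPM (mean ± SD, n = 2 libraries), and these 3 classes did not differ beyond their spread. Cajal-Retzius cells had 25.3 ± 0.19 CPM. In excitatory neurons Pax6 fell to 8.67 ± 0.48 CPM, the level of erythroid cells, at 8.67 ± 0.71 CPM, a class not known to express neural factors. Microglia, endothelial cells, mural cells and fibroblasts had less, with means of 0.881, 0.636, 1.42 and 2.13 CPM. The classes that should lack Pax6 thus gave no common background. MGE-type neurons had 4.81 ± 0.52 CPM.

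Pax6 was higher in WT replicate 1 than in WT replicate 6 by 1.37 times in RGCs, 1.43 times in IPCs, 1.34 times in eminence progenitors and 1.59 times in dLGE-type neurons. In excitatory neurons, Cajal-Retzius cells and CGE-type neurons the same ratio was 1.08, 1.01 and 0.80. The ratios between libraries in RGCs and IPCs exceeded the ratio of RGCs to IPCs within either library, and their cause was not tested.

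Eomes stood at 589.8 and 581 CPM in IPCs. Every other class lay far below, with 27.5 and 18.4 CPM in Cajal-Retzius cells and 12.4 and 15.2 CPM in excitatory neurons. RGCs had 18.0 CPM from 65 UMIs in WT replicate 1 and 7.73 CPM from 26 UMIs in WT replicate 6. These values overlapped with those of excitatory neurons and of erythroid cells, at 4.53 and 15.1 CPM. They were above both libraries of MGE-type neurons, at 4.03 and 3.17 CPM, and of all inhibitory neurons, at 4.97 and 2.28 CPM, so the classes that should lack Eomes did not give 1 common background. Eminence progenitors had 2.29 and 5.50 CPM.

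Emx1 stood at 113 and 109 CPM in IPCs, 49.7 and 51.6 CPM in excitatory neurons and 28.8 and 30.6 CPM in RGCs. None of these ranges overlapped. Eminence progenitors held 4 and 2 Emx1 UMIs in all, or 1.52 and 0.846 CPM, and Cajal-Retzius cells held 0 and 4 UMIs. The 0 came from 472415 UMIs, which allows up to 3 UMIs, or 6.35 CPM. In erythroid cells Emx1 read 4.53 and 13.1 CPM, so the values of eminence progenitors, Cajal-Retzius cells and all inhibitory types did not exceed the range of a class that should lack the gene.

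Emx2 followed another order than its paralog. Cajal-Retzius cells had 288 and 263 CPM, RGCs 58.1 and 65.4 CPM, IPCs 44.7 and 42.7 CPM, eminence progenitors 22.9 and 25.8 CPM and excitatory neurons 11.5 and 13.9 CPM. The ranges of these 5 classes were separate. Erythroid cells had 3.63 and 5.90 CPM. The antisense transcript Emx2os was likewise highest in Cajal-Retzius cells, at 104 and 107 CPM, with 16.3 and 19.9 CPM in RGCs, 11.2 ± 3.1 CPM in IPCs and 5.88 ± 0.92 CPM in excitatory neurons. Whether the counting used strand was not stated, but the RefSeq spans of Emx2 and Emx2os do not overlap. Pax6os1, antisense to Pax6 and overlapping its start, had 18.0 and 13.7 CPM in RGCs, 10.1 and 12.8 CPM in IPCs and 1.52 and 1.69 CPM in eminence progenitors. Its span overlaps that of Pax6 only over chr2:105668896-105670330. Within that stretch its reads cannot be told apart from those of Pax6 unless strand was used.

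Lhx2 stood at 361 and 351 CPM in IPCs, 210.4 and 218 CPM in excitatory neurons and 181 and 190.5 CPM in RGCs. Cajal-Retzius cells had 110.1 and 88.8 CPM, and eminence progenitors 41.5 and 55.0 CPM. These ranges were separate as well. All inhibitory types lay between 6.10 and 13.0 CPM, under the 25.4 and 34.1 CPM of erythroid cells.

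To ask how the factors differ along the step from RGCs to IPCs, UMIs were summed per class and library and compared with edgeR's quasi-likelihood test. Of the 5 factors, 4 passed (Benjamini-Hochberg adjusted p under 0.05), in a comparison in which 43.8% of all genes tested passed. Eomes was lower in RGCs by a log2 difference of -5.58 ± 0.26 (SE, adjusted p = 2.9e-07). Emx1 was lower by -1.99 ± 0.11 (adjusted p = 1.1e-06) and Lhx2 by -1.03 ± 0.10 (adjusted p = 2.8e-05). Emx2 was the only factor called higher in RGCs, by 0.41 ± 0.12 (adjusted p = 0.020), so the paralogs Emx1 and Emx2 moved in opposite directions. This call for Emx2 was lost with DESeq2 (adjusted p = 0.27), without the filter on low counts (0.055) and with stricter gates (0.053), and also without WT replicate 6 of the RGCs or either IPC library. Pax6 differed by 0.19 ± 0.19 (adjusted p = 0.45). In the fit with the library as a block Pax6 passed, with a log2 difference of 0.19 (adjusted p = 0.047). Within WT replicate 1 and WT replicate 6, RGCs were higher than IPCs by log2 differences of 0.25 and 0.31.

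**Figure D2:**
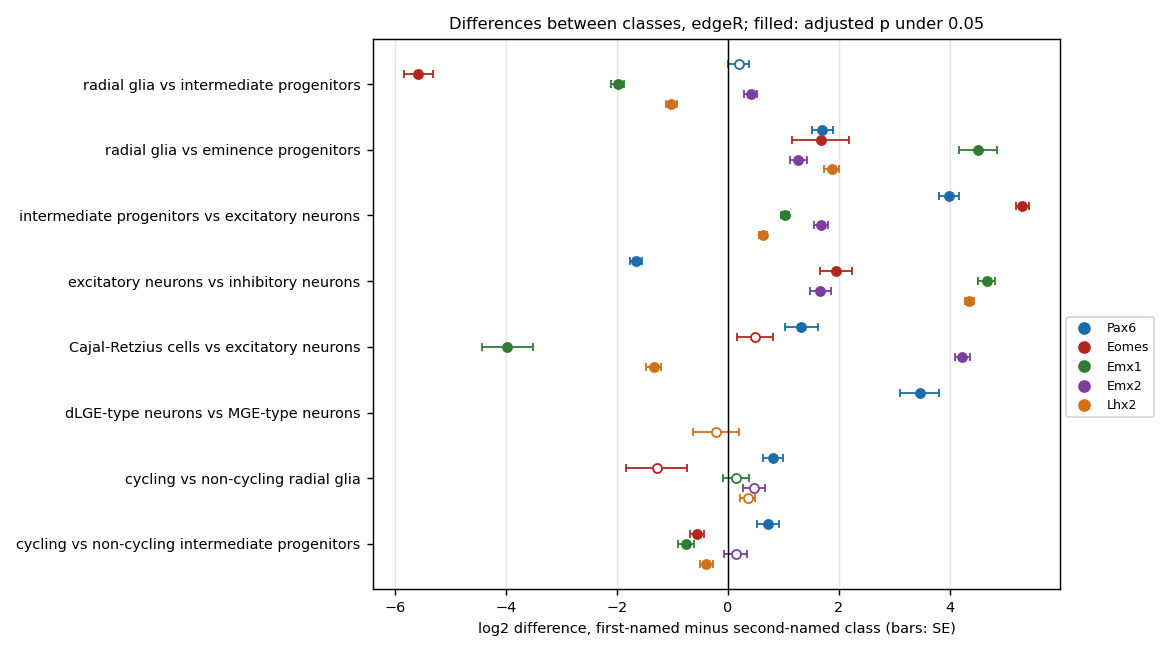
Log2 difference of each factor (x axis, with bars for the SE) in the 8 comparisons between classes (y axis), edgeR on 2 sums per class, where filled symbols passed. Emx1 and Lhx2 lie left of 0 and Emx2 right of 0 between RGCs and IPCs. All 5 factors lie right of 0 between RGCs and eminence progenitors, where Emx1 and Eomes passed the filter on low counts through RGCs alone.

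The RGC gate also held cells with transcripts of ventral factors. Of 859 RGCs, 112 had a UMI of Gsx1, Nkx2-1, Nkx6-2, Lhx8, Isl1 or Six3, with 58 in WT replicate 1 and 54 in WT replicate 6. Of these genes, Nkx6-2 was itself higher in RGCs than in eminence progenitors (log2 difference 2.27 ± 0.60), so not all of them mark ventral cells here. In these cells Pax6 stood at 46.9 and 71.1 CPM, against 234 and 163 CPM in the other RGCs. Emx1 stood at 5.41 and 12.2 CPM against 33.0 and 33.8 CPM, and the cortical factor Dmrta2 at 10.8 and 6.09 CPM against 50.7 and 43.5 CPM. Emx2 differed less, at 41.5 and 54.9 CPM against 61.1 and 67.2 CPM, and Lhx2 stood at 132 and 136 CPM against 189.9 and 199.8 CPM. The groups did not overlap for Pax6, Emx1, Dmrta2, Emx2 or Lhx2. For Eomes they did, at 3.61 and 8.13 CPM against 20.6 and 7.66 CPM. The cells with a ventral UMI were deeper, with medians of 8875 and 8772 UMIs against 7156 and 7693. The part of depth in this split was not tested. With such cells left out of RGCs and IPCs, an alternative chosen after seeing the data, the same 4 factors passed between RGCs and IPCs, with Emx1 at -1.84 and Emx2 at 0.47 (adjusted p = 0.011), and Pax6 at 0.34 (adjusted p = 0.18).

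Other pallial patterning and progenitor genes, of which all 16 listed were tested between RGCs and IPCs, were higher in RGCs in 9 cases and lower in 4, with a median log2 difference of 1.09, against -0.01 over all genes tested. The SOX factor Sox9 (3.17 ± 0.11), the inhibitor of differentiation Id4 (3.15 ± 0.11) and Hopx (2.98 ± 0.12) differed most. Dmrta2, Nr2f1 and Fezf2 were among those lower in RGCs, as Emx1 and Lhx2 were. Among the genes of the neurogenic cascade, the proneural factor Neurod1 stood at 3.14 ± 0.65 CPM in RGCs and 144 ± 12 CPM in IPCs, while Neurod4 read 0.287 ± 0.014 against 25.5 ± 8.3 CPM and Nhlh1 0.149 ± 0.21 against 16.2 ± 2.1 CPM. Neurod4 and Nhlh1 could pass the filter on low counts only through IPCs, so no count is given for this list. The same holds for ventral progenitor factors, of which Nkx6-2 passed only through RGCs, at 5.33 ± 1.3 against 0.136 ± 0.19 CPM. Six3 stood at 20.2 ± 1.2 against 3.68 ± 1.3 CPM and Olig1 at 25.1 ± 1.1 against 3.41 ± 3.7 CPM, and 4 of the 8 listed factors were too low in both classes to be tested.

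RGCs were next compared with eminence progenitors, that is, dorsal with ventral progenitors. The classes also differed in stage markers. Eminence progenitors had a median RGC score of -0.15 and IPC score of 0.29, against 2.25 and -0.15 in RGCs. Region and progenitor stage cannot be told apart in this comparison. All 5 factors were higher in RGCs, though Emx1 and Eomes passed the filter on low counts through RGCs alone. In this comparison 48.6% of all genes tested passed in either direction. The log2 difference was 4.50 ± 0.34 for Emx1 (adjusted p = 3.5e-06), 1.87 ± 0.14 for Lhx2 (adjusted p = 2.8e-06) and 1.70 ± 0.19 for Pax6 (adjusted p = 4.6e-05). Emx2 differed by 1.26 ± 0.15 (adjusted p = 9.1e-05). Eomes differed by 1.67 ± 0.51 (adjusted p = 0.022), from 65 and 26 UMIs in RGCs and 6 and 13 UMIs in eminence progenitors. Emx1, with 4 and 2 UMIs in eminence progenitors, passed the filter on low counts through RGCs alone, so its direction was set by the filter, and Eomes was below the filter in WT replicate 1 of the eminence progenitors. The call for Eomes was lost with DESeq2 (adjusted p = 0.085), with stricter gates (0.18) and without WT replicate 1 of either class (0.25 and 0.066). The gate for eminence progenitors asked for cycling markers, with a median cycling score of 1.90 against 0.34 in RGCs. In RGCs that were themselves cycling, Pax6 stood at 208 ± 48, Emx1 at 28.1 ± 2.6, Emx2 at 65.6 ± 0.96 and Lhx2 at 199 ± 6.1 CPM, each above eminence progenitors in both libraries.

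Several pallial and ventral genes, such as Tfap2c and Gsx1, passed the filter through 1 class alone, so these lists are given by levels and without a count. Tfap2c, a dorsal progenitor factor, stood at 64.8 ± 0.40 CPM in RGCs and 0.804 ± 0.059 CPM in eminence progenitors. Hopx and Fezf2 followed, at 151 ± 7.4 against 5.48 ± 3.6 CPM and 36.6 ± 1.6 against 3.02 ± 0.51 CPM. Of the neurogenic genes, 2 were tested, with Hes6 lower (-1.84 ± 0.13) and Unc5d higher (2.07 ± 0.14) in RGCs. Among the ventral factors, Gsx1 read 0.138 ± 0.20 against 11.9 ± 2.9 CPM and Isl1, a factor of striatal neurons, 1.14 ± 0.35 against 20.5 ± 0.94 CPM. Olig1 was instead higher in RGCs, at 25.1 ± 1.1 against 1.14 ± 1.6 CPM, and so was Nkx6-2, by a log2 difference of 2.27 ± 0.60. Gsx1, a ganglionic eminence factor, was thus highest where Emx1 was lowest among the 3 progenitor classes.

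To follow the factors from IPCs to their neuronal progeny, IPCs were compared with excitatory neurons. All 5 were higher in IPCs, and 52.6% of all genes tested passed in either direction. Eomes and Pax6 differed by 5.30 ± 0.12 (adjusted p = 8.6e-08) and 3.97 ± 0.18 (adjusted p = 7.1e-07) on the log2 scale. Emx2 differed by 1.68 ± 0.13 (adjusted p = 1.3e-05), Emx1 by 1.03 ± 0.08 (adjusted p = 1.3e-05) and Lhx2 by 0.62 ± 0.08 (adjusted p = 0.00020). Emx1 and Lhx2 thus differed least between IPCs and neurons, and Eomes and Pax6 most. Without scaling, the median over all genes moved from -0.01 to 0.09 in this comparison, and all 5 factors remained higher. The 3494 excitatory neurons held 45.0% and 39.2% of all Emx1 UMIs of the kept cells.

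Excitatory neurons, of dorsal origin, were compared with inhibitory neurons, of ventral origin. All 5 factors passed, against 39.4% of all genes. Emx1 (4.66 ± 0.15, adjusted p = 6.3e-07) and Lhx2 (4.34 ± 0.08, adjusted p = 1.1e-07) differed most, and Eomes (1.95 ± 0.29, adjusted p = 0.0016) and Emx2 (1.66 ± 0.20, adjusted p = 0.00055) were also higher in excitatory neurons. Pax6 went the other way, by -1.66 ± 0.11 (adjusted p = 3.1e-05), with 28.9 and 28.4 CPM in inhibitory neurons against 9.01 and 8.33 CPM. Between the inhibitory types, Pax6 stood at 64.7 and 40.7 CPM in dLGE-type neurons and 5.18 and 4.44 CPM in MGE-type neurons, from which most SST+ and PV+ cINs derive. The log2 difference was 3.46 ± 0.35 (adjusted p = 4.1e-05), where 9.93% of all genes passed. Pax6, with 9 and 7 UMIs in MGE-type neurons, passed the filter on low counts through the dLGE type alone. Its direction was thus set by the filter. Lhx2 differed by -0.21 ± 0.41 (adjusted p = 0.87), and the other 3 factors were too low to be tested.

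Per cell, Pax6 was sparse in ventral neurons, and at these levels and depths most cells would hold no UMI even if all expressed it alike, so the shares do not count expressing cells. Of dLGE-type neurons, 16.9% and 11.9% had a Pax6 UMI, of CGE-type neurons 11.2% and 10.5%, and of MGE-type neurons 2.54% and 1.69%, at median depths of 4510, 4560 and 4287 UMIs. The 95% Wilson intervals were 12.7 to 22.0% and 8.34 to 16.8% for the dLGE type and 1.34 to 4.75% and 0.777 to 3.64% for the MGE type, and they cover counting error only. After each cell had been thinned to 2000 UMIs, the shares were 7.18 ± 0.96% of dLGE-type, 7.44 ± 0.64% of CGE-type and 0.913 ± 0.85% of MGE-type neurons, with 46, 19 and 58 shallower cells left out. Erythroid cells had 2.15 ± 0.75% at that depth, so the MGE-type share did not exceed that of erythroid cells. The CGE and dLGE types lay above the erythroid share at the same depth.

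Cajal-Retzius cells, which come from the cortical hem, septum and pallial-subpallial border, were compared with excitatory neurons. Of the 5 factors, 4 passed, against 28.0% of all genes. Emx2 was higher in Cajal-Retzius cells by 4.22 ± 0.13 (adjusted p = 1.1e-07) and Pax6 by 1.32 ± 0.29 (adjusted p = 0.0098), the latter from 12 and 15 UMIs. Emx1 was lower by -3.97 ± 0.45 (adjusted p = 0.00022) and Lhx2 by -1.34 ± 0.13 (adjusted p = 9.1e-05). Emx1, with 0 and 4 UMIs in Cajal-Retzius cells, passed the filter on low counts through excitatory neurons alone. Its direction was thus set by the filter. Eomes differed by 0.49 ± 0.32 (adjusted p = 0.30) and passed when doublets were kept (0.76, adjusted p = 0.032). Without scaling, the median over all genes moved from -0.07 to 0.15, and genes called higher and lower moved from 1896 and 2064 to 2646 and 1362, while the direction of the 4 calls was the same. The call for Pax6 was lost without WT replicate 6 of the excitatory neurons (adjusted p = 0.057).

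The share of cells with a UMI of each factor, after thinning to 2000 UMIs, followed the levels. Pax6 was detected in 27.3 ± 9.1% of 814 RGCs and 24.1 ± 6.4% of 806 IPCs, and Eomes in 2.45 ± 0.63% and 58.4 ± 0.76%. Emx1 was detected in 3.58 ± 0.97% of RGCs and 18.9 ± 0.006% of IPCs, Emx2 in 10.3 ± 2.0% and 7.86 ± 1.7%, and Lhx2 in 27.6 ± 0.10% and 48.4 ± 0.79%. In erythroid cells at this depth the shares were 2.15% for Pax6, 1.14% for Eomes, 1.08% for Emx1, and 0.737% for Emx2, and Lhx2 was seen in 16 of 434 cells. In microglia Pax6 and Emx1 were each found in 0 of 136 cells, which allows up to 2.21% of cells with a UMI at this depth and sets no limit on cells expressing the gene, and Lhx2 in 5.88 ± 4.2%. Without thinning, Pax6 was detected in 54.1 ± 5.6% of RGCs and 60.0 ± 6.7% of IPCs, and Eomes in 5.09 ± 2.5% of RGCs and 84.7 ± 0.12% of IPCs, at median depths of 7712 and 8599 UMIs, so that the Pax6 share was higher in IPCs before thinning and lower after it. Erythroid cells, at a median of 3707 UMIs, had 3.17 ± 1.5% for Pax6.

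Several factors were often seen in the same IPC. At 2000 UMIs, 35.1 ± 1.1% of IPCs held UMIs of 2 factors, 13.7 ± 1.5% of 3 and 2.73 ± 0.15% of 4, while 14.1 ± 0.61% held none. Of RGCs, 46.8 ± 2.2% held none, 37.5 ± 1.2% held 1 and 13.5 ± 2.4% held 2. None was seen in 81.7 ± 1.7% of eminence progenitors, 58.6 ± 0.058% of excitatory neurons and 92.2 ± 0.18% of inhibitory neurons, beside 92.5 ± 1.5% of erythroid cells and 89.7 ± 2.1% of microglia. At 5000 UMIs, reached by 731 IPCs and 577 RGCs, all 5 factors were seen in 2.73 ± 0.19% of IPCs and in 0 of 577 RGCs, and none in 2.32 ± 0.027% of IPCs and 19.2 ± 0.93% of RGCs.

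**Figure D3:**
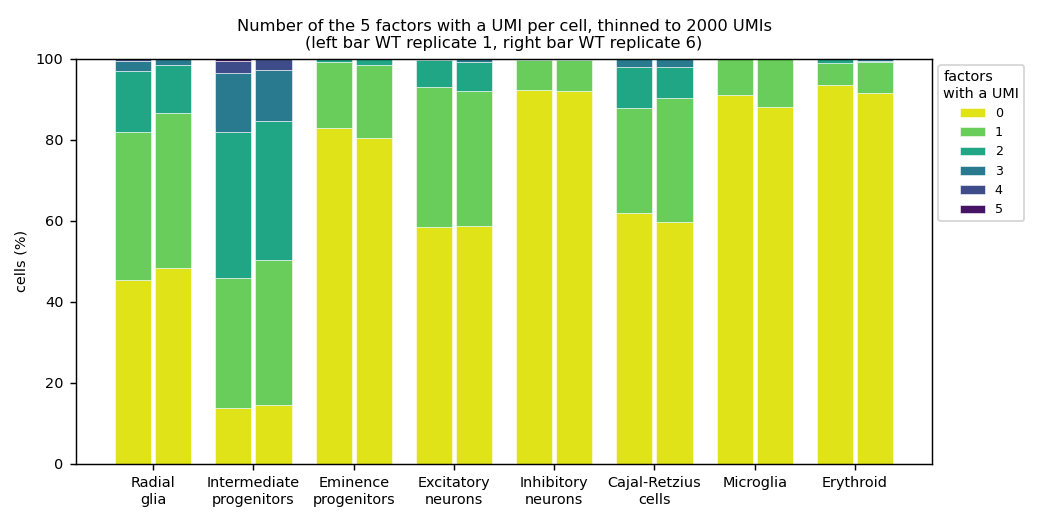
Share of cells (y axis, %) with a UMI of 0 to 5 of the factors after thinning to 2000 UMIs, in 8 classes (x axis), with the left bar for WT replicate 1 and the right bar for WT replicate 6. IPCs have the smallest share with none, 13.7 and 14.6%, and inhibitory neurons lie near the erythroid cells and microglia.

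Co-detection was set against the product of the 2 single shares in the same class and library, and it is given as a description. Pax6 and Eomes were found together in 124 of 806 IPCs at 2000 UMIs, or 15.5 ± 4.0% where the product gave 14.1%, with observed over expected ratios of 1.11 and 1.10. At 5000 UMIs it was 299 of 731 IPCs, or 41.0 ± 1.6%, with ratios of 1.05 and 1.14. Both libraries thus lay slightly above the product at either depth. In RGCs the pair was found in 5 of 814 cells at 2000 UMIs, all in WT replicate 1, with ratios of 1.24 and 0. At 5000 UMIs it was found in 14 of 577 cells, with ratios of 1.19 and 0.52, so the libraries did not share a direction.

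In IPCs the ratios of the other 9 pairs at 5000 UMIs lay between 0.939 and 1.12. Eomes and Lhx2 were found together in 62.8 ± 1.1% of IPCs, with ratios of 1.01 in both libraries. In RGCs the 6 pairs without Eomes all had ratios above 1 in both libraries at this depth. Pax6 and Emx1 had ratios of 1.34 and 1.19, and Emx1 and Lhx2 1.21 and 1.15. The RGC gate held the cells with ventral UMIs described above, in which Pax6, Emx1 and Lhx2 were all lower, and their part in these ratios was not tested. In excitatory neurons at 5000 UMIs, Pax6 and Eomes were found together in 22 of 3012 cells, with ratios of 2.45 and 5.99. Eomes and Emx1 were found together in 40 cells, with ratios of 1.40 and 1.26. The excitatory gate held the cells with IPC markers described above, and their part in these ratios was not tested.

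**Figure D4:**
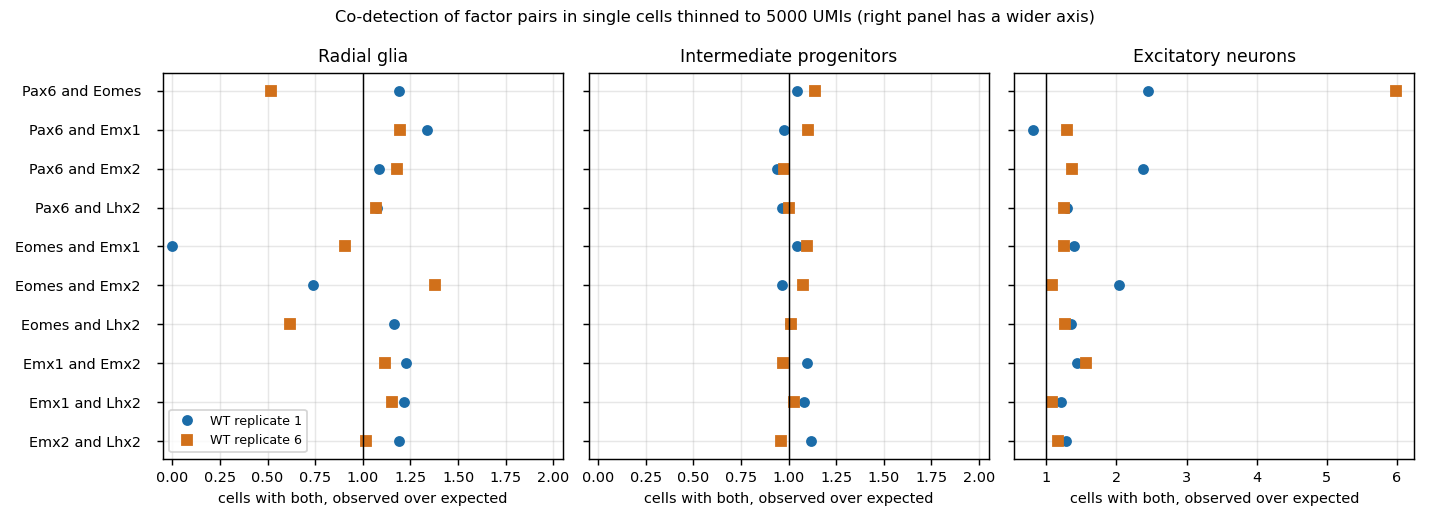
Cells with UMIs of both factors divided by the number expected from the single shares (x axis), for the 10 pairs (y axis) in RGCs, IPCs and excitatory neurons thinned to 5000 UMIs, with 1 symbol per library and a line at 1. IPC pairs lie near 1, whereas Pax6 and Eomes in excitatory neurons reach 2.45 and 5.99, from 22 cells.

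Progenitors were finally split by cycling markers. Between 206 and 184 cycling and 161 and 172 non-cycling RGCs, 1 of 5 factors passed, against 23.2% of all genes. Pax6 was higher in cycling RGCs by 0.81 ± 0.18 (adjusted p = 0.0083), with 242 and 174 CPM against 133 and 112 CPM. It lost the call when WT replicate 1 or 6 of the cycling RGCs was left out (adjusted p = 0.16 and 0.079). With the library as a block, 4 factors passed, with Eomes at -1.37 (adjusted p = 0.0017), Emx2 at 0.47 (0.044) and Lhx2 at 0.35 (0.029), and without a block these 3 had adjusted p = 0.12, 0.12 and 0.074. Eomes rested on 29 and 5 UMIs in cycling and 32 and 17 UMIs in non-cycling RGCs. In cycling WT replicate 6 it was below the filter on low counts, so it entered through the non-cycling RGCs alone, where it was higher. With the ventral-UMI cells left out, Pax6 (0.64) and Eomes (-1.69) passed.

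Between 100 and 103 cycling and 255 and 280 non-cycling IPCs, 4 factors passed, against 28.0% of all genes. Pax6 was again higher in cycling cells, by 0.72 ± 0.20 (adjusted p = 0.016), with 238 and 154 CPM against 140.4 and 107 CPM. The others were lower in cycling IPCs. Emx1 stood at 71.2 and 74.9 CPM against 133 and 123 CPM (-0.76 ± 0.14, adjusted p = 0.0018). Eomes stood at 432 and 406 CPM against 641 and 643 CPM (-0.56 ± 0.12, adjusted p = 0.0040). Lhx2 had 289.9 and 290.3 CPM against 404 and 384 CPM (-0.39 ± 0.12, adjusted p = 0.028). Emx2 differed by 0.14 ± 0.21 (adjusted p = 0.66). The calls for Pax6 and Lhx2 were lost with DESeq2 (adjusted p = 0.053 and 0.17) and with stricter gates (0.078 and 0.12). Cycling cells were deeper in both classes, with medians of 9419 against 6240 UMIs in RGCs and 10704 against 8288 UMIs in IPCs.

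Without non-cycling WT replicate 1, Emx1 and Pax6 passed between cycling and non-cycling IPCs, and without non-cycling WT replicate 6 only Emx1 did, with Eomes at adjusted p = 0.066 and 0.069. Pax6 also lost the call without cycling WT replicate 1 (adjusted p = 0.073), and Lhx2 without cycling WT replicate 6 (0.053). Whether cycling acted differently in RGCs and IPCs was tested as an interaction, added after seeing the data. None of the 5 factors passed in edgeR, where 1.18% of all genes did, and 2 of the 5 had an unadjusted p under 0.05. These were Emx1 (0.87 ± 0.26, adjusted p = 0.14) and Lhx2 (0.71 ± 0.17, adjusted p = 0.063), whose cycling effect was higher in RGCs.

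**Figure D5:**
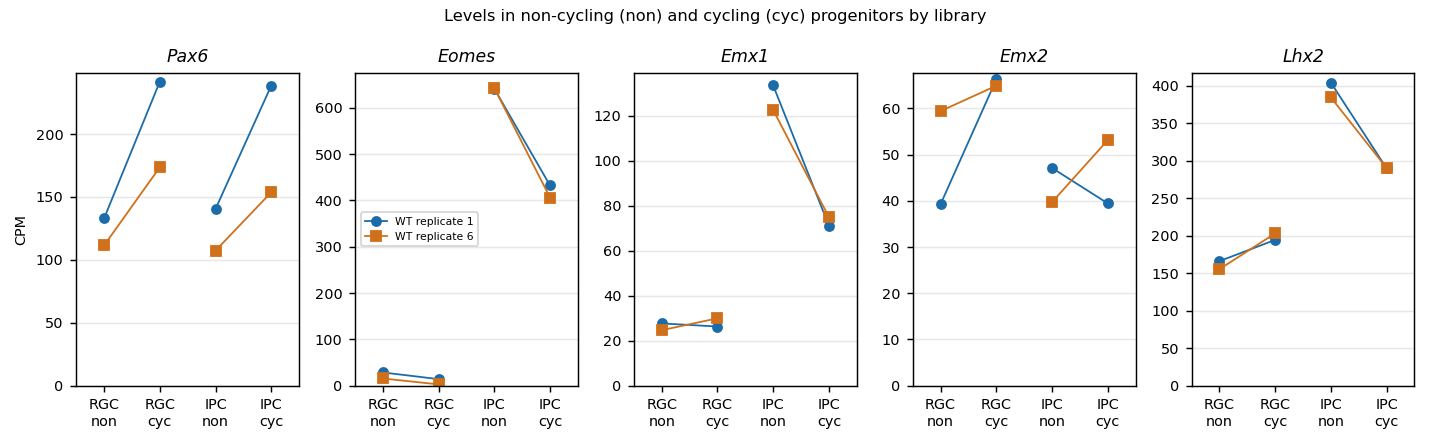
CPM of each factor (y axis, from 0) in non-cycling and cycling RGCs and IPCs (x axis), with 1 line per library joining the states. Pax6 rises from non-cycling to cycling cells in both classes and libraries, and Eomes, Emx1 and Lhx2 fall in IPCs in both libraries.

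The genes whose levels were most like those of each factor were sought over 30 sums of 15 classes, by Pearson's r of log2(CPM + 10), given as a description over sums that share libraries. Eomes was nearest to Neurog2 (r = 0.95), the proneural factor, which is itself an IPC gate marker, and then to Rnd2 (0.81). Emx1 was nearest to Sema3c (0.88), Shisa9 and Mdga1, and the list held Lhx2 (0.85), the only other of the 5 factors among the leading 5 genes of any of them. Emx2 was nearest to Tmem163 (0.91) and Plekha7 (0.88), and the list held Wnt7b (0.84), a secreted WNT ligand. Pax6 was nearest to Ezr (0.84), the membrane linker ezrin, and to Slc1a2 (0.84), a glutamate transporter, and Lhx2 to Nfix (0.84), a nuclear factor I gene.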

How the data were processed

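Cells of the E16.5 dorsal telencephalon were profiled with 10x Genomics single cell 3' v3.1 chemistry. Per the submitters' processing notes the authors used Cell Ranger 7.0.0 and mm10. They deposited unnormalised UMI counts for each called cell. Whether intronic reads were counted is not given in the sources used here, and it would raise long genes. The members and gene lists were chosen with earlier results of these data known.

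Cells needed 1500 to 60000 UMIs and a mitochondrial share below 10%. Doublets were left out by Scrublet (scanpy 1.11.5), run without the 5 factors, at an expected rate of 11.3% and 10.4%. Gates used mean z-scores of log-scaled marker genes (score of at least 0.5, or 2 for non-neural and Cajal-Retzius cells, a lead of 0.3 and at least 3 markers detected, or 2 for inhibitory types). RGCs and IPCs had a ventral score under 0.5, cycling cells a cycling score of at least 0.5 and non-cycling cells one under 0. Thresholds were set after the scores had been seen. Of RGCs, 24 and 14 lay within 0.1 of a threshold, of IPCs 35 and 32 and of eminence progenitors 33 and 33. The RGC, IPC and excitatory marker sets had median scores of 2.25, -0.15 and -0.65 in RGCs. In 95.6% of RGCs at least 3 erythroid markers were found, a sign of free RNA.

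UMIs were summed per class and library and tested two-sided with edgeR 4.0.16 (quasi-likelihood, TMM, filterByExpr, Benjamini-Hochberg over all genes). Nothing says that the libraries came from separate litters, and their titles share a number, so p-values measure the spread between these 2 libraries. Since sex-linked transcripts differed, sex cannot be told apart from other differences between the libraries. Their summed counts differed by a chi-square of 32.9 per degree of freedom. Since the compared sums share libraries, pairing follows from the design. Same-library deviations correlated at 0.14 to 0.36 over the 8 comparisons, and a library block was an alternative. The test recovered known changes in counts simulated for RGCs against IPCs. These counts had a common dispersion for all genes and no library effect, unlike the data, so its error rates here are not known from them. For co-detection each cell was thinned to 2000 UMIs, or 5000. Named genes were the 5 factors, the 5 genes most like each, and the 3 context genes per list with the largest called differences between RGCs and both other progenitor classes. DESeq2 1.42.0, no TMM, no filter on low counts, kept doublets, stricter cell filters (3000 to 30000 UMIs, 5%) and gates, all classes in 1 fit, and leaving out each sum were alternatives. The values of 1 context gene are not reported here.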

Additional observations from a re-analysis of the deposited data

How the results depend on the processing

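The number of factors passing was within 1.5 times the reported count in 6 of the 8 comparisons under every alternative run. With 1 sum left out, where the lone sum is assumed to vary like the other class, it ranged from 3 to 4 of 5 for RGCs against IPCs, 4 to 5 for RGCs against eminence progenitors, 3 to 4 for Cajal-Retzius cells, 0 to 3 for cycling RGCs and 1 to 3 for cycling IPCs. It was 5 throughout for IPCs against excitatory and for excitatory against inhibitory neurons, and 1 for dLGE-type against MGE-type neurons. The factor called between dLGE-type and MGE-type neurons as reported was Pax6, whose direction was set by the filter on low counts. In cycling RGCs, 1 factor passed as reported, 4 with the library as a replicate block, 3 with doublets kept and 2 without ventral-UMI cells. In cycling IPCs, 4 passed as reported and 2 with DESeq2 or stricter gates. The block changed no other call than those for RGCs given with the results. Over all genes, calls fell with DESeq2 from 5621 to 3404 for RGCs against IPCs, 6041 to 3741 for RGCs against eminence progenitors, 5878 to 3685 for excitatory against inhibitory neurons, 1020 to 564 for dLGE-type against MGE-type neurons, 2567 to 1087 for cycling RGCs and 2967 to 1293 for cycling IPCs. The block gave 1560 calls for dLGE-type against MGE-type neurons, and a single fit of all classes 3728 for excitatory against inhibitory neurons. With 1 sum left out, calls ranged from 311 to 2348 for cycling RGCs, 1386 to 3037 for cycling IPCs and 2368 to 3481 for Cajal-Retzius cells, reported as 3960.

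Differences that were not called and changed sign were Pax6 between RGCs and IPCs (-0.069 to 0.46 with 1 sum left out, below 0 without RGC replicate 1 or IPC replicate 6), Lhx2 between dLGE-type and MGE-type neurons (-0.79 to 0.13, above 0 without dLGE replicate 6) and Emx2 in cycling IPCs (-0.014 with stricter gates, and -0.058 to 0.34 with 1 sum left out, below 0 without cycling replicate 6). Leaving out 1 sum breaks the pairing of the sums by library. Within WT replicate 1 and WT replicate 6, Pax6 was higher in RGCs than in IPCs by log2 differences of 0.25 and 0.31. The ratio for Pax6 and Eomes in IPCs was 1.08 without thinning, 1.09 at 5000 UMIs, 1.12 with doublets kept and 1.02 with stricter gates, and 1.10 to 1.11 over single libraries. In RGCs it was 0 to 1.24 over single libraries. The causes were not tested. Leaving out shared barcodes or progenitors with ventral UMIs was chosen after seeing the data.

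With 2 libraries the spread itself is poorly known, and Cajal-Retzius cells rest on about 50 cells a library. Low factors lie at the level of erythroid cells, whose Pax6 level exceeded that of the other non-neural classes.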

Other observations

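Oligodendrocyte precursors, with 35 and 26 cells, had 8.38 and 23.9 CPM of Emx2 and 36.3 and 7.96 CPM of Lhx2, and no Emx1 UMI in either library. Fibroblasts, the deepest class at a median of 13077 UMIs, had 0.833 and 0.920 CPM of Emx1 and 3.33 and 0.920 CPM of Pax6, below the erythroid cells, whose median was 3707 UMIs.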
